A study of Homo sapiens with 9 samples.

Results

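The 10 amino acid carriers described here were SLC7A5, SLC3A2, SLC7A6, SLC7A11, SLC7A1, SLC1A4, SLC1A5, SLC38A1, SLC38A2 and SLC43A1. They were taken by symbol from a table of 35876 genes, and all 10 were present. All 10 were also among the 11905 genes that passed a filter on low counts. The genes were selected on a reading of earlier results, with their counts in these 9 libraries and their fold changes over the 3 groups known, so their levels and group differences are given as a description and carry no test.

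The RNA came from HEK293, an established line of human embryonic kidney cells, and 3 replicates were sequenced in each of 3 groups. Every group carried Cas9, the RNA-guided DNA nuclease, under genotype names that begin with CC, a prefix the labels do not explain. The Cas9 group (CC_Cas9) carried the nuclease without a recombinase. The Cre group (CC_Cas9_Cre) also carried Cre, which recombines DNA at loxP sites, and the Flpo group (CC_Cas9_Flpo) also carried Flpo, which does so at FRT sites. The series is about a gene knockout system that a chemical switches on and that can be reversed. The labels used here give no guide, dose, time, promoter or clone. They do not say whether replicates were separate cultures, so p-values measure only the spread between these samples, which may be technical.

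Amino acids do not cross the plasma membrane unaided, and carriers of the SLC families move them. SLC3A2, the CD98 heavy chain, is a single-pass glycoprotein that brings several SLC7 light chains to the cell surface. SLC7A5 (LAT1) is the light chain that exchanges large neutral amino acids such as leucine, and in growing cells this exchange feeds the nutrient-sensing kinase complex mTORC1. SLC1A5 and the system A carrier SLC38A2 accumulate glutamine and other small neutral amino acids, which can serve as the exchange substrate for SLC7A5. Several of these genes are known targets of ATF4, the transcription factor of the amino acid response, which binds a composite C/EBP-ATF element.

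The element's core was searched as TGATGNAA on both strands of promoter windows from RefSeq (GRCh38.p14) that run from 250 bases before to 50 bases after an annotated start. Windows numbered 16 for 9 of the carriers, and SLC7A11 had no entry. The core occurred in 5 of these 16 windows, each in a different gene, and in 3.62% of all 35116 windows. Among the 8994 tested genes with a window, 2.78% held it. The 5 matches are shown because ATF4, which binds such an element, is known to target several of these genes. Neither binding nor a response was measured at these matches. RefSeq lists several starts for some genes, and most of those below lie inside the gene as GENCODE 29 draws it: 25597 bases from its 5′ end for SLC3A2, 3501 for SLC38A1, 3780 for SLC1A5 and 922 for SLC1A4. The start of SLC7A1 is at that end. Each is printed in the gene's direction, 5′ to 3′, with the match in capitals.
SLC3A2, chr11:62881719-62881748, plus strand, match on the opposite strand from base 38 after an inner start: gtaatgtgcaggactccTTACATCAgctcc
SLC1A4, chr2:64989381-64989410, plus strand, opposite-strand match beginning 7 bases before an inner start: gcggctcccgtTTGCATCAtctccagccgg
SLC1A5, chr19:46784893-46784922, minus strand, match beginning 97 bases before an inner start: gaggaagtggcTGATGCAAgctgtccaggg
SLC38A1, chr12:46266502-46266531, minus strand, match beginning 4 bases before an inner start: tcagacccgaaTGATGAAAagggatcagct
SLC7A1, chr13:29595663-29595692, minus strand, match from base 8 after the start: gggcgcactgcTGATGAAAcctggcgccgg

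The E-box CACGTG, a palindrome that MYC and related factors recognise, was searched in the same windows and did not overlap the first core in any printed match. It occurred in 3 of the 9 genes, against 12.7% of tested genes, and in 3 of their 16 windows, against 7.26% of all windows. It is shown because SLC7A5, the carrier with the largest group difference here, held it and lacked TGATGNAA in its 1 window. Since the E-box was shown for a match in a carrier, these shares are a description and carry no test. A link between the matches and the group differences was not tested. These matches describe letters in a window and were not measured as bound sites.
SLC7A5, chr16:87869620-87869649, minus strand, 130 bases before the start: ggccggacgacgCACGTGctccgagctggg
SLC1A5, chr19:46787326-46787355, minus strand, 50 bases before another inner start, 1301 bases from the gene's 5′ end: ggcgggagtggtCACGTGgacaggacgggg
SLC43A1, chr11:57515797-57515826, minus strand, 112 bases before the start: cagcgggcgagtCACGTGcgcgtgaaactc

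The libraries differed widely in depth, from 213907 estimated counts (Cre replicate 2) to 8833491 (Flpo replicate 1), a ratio of 41.3. The Cas9 libraries held 993902 to 3761779 counts, the Cre libraries 213907 to 1701730 and the Flpo libraries 4989524 to 8833491. Every Flpo library was thus deeper than every other library, so depth and the Flpo group cannot be told apart by design. Flpo replicates 1 and 3 stood apart, with 3.71% and 3.51% of their counts on ACTB, against 0.0668% to 0.523% in the other 7 libraries. The RNA AC010970.1 took 0.591% to 21.9% of the counts, least in Flpo replicate 3 and most in Cas9 replicate 2. Of the HEK293 markers, KRT8, KRT18 and VIM were present, and the kidney factor PAX2 had 1 count in all 9 libraries together. Markers of liver, which a protocol text names, summed to 9.10 to 110 CPM (counts per 1000000 counts of the scaled library total), and ALB was at 0 in 8 of 9 libraries. The 5 fibroblast markers, mostly collagen genes and all detected in every library, summed to 550 to 6484 CPM in Cre, 264 to 893 in Cas9 and 253 to 326 in Flpo, with the highest sum in Cre replicate 2. Of 4 tested, 3 were higher in Cre than in Flpo by edgeR. The 9 HEK293 markers summed to 511 to 1094 CPM in Cre, 587 to 1391 in Cas9 and 1587 to 5376 in Flpo, and KRT8 and KRT18 made up most of the Flpo sums. These 2 of 5 tested were lower in Cre than in Flpo by edgeR, whereas NEFL was higher in every Cre library than in any Flpo library (log2 fold change 1.62, SE 0.54) and VIM overlapped (0.23, SE 0.69). The 5 blood markers summed to 36.7 to 250 over the 9 libraries. The part of depth, ACTB, AC010970.1 and collagen counts in the results below was not tested.

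Levels are given as CPM after TMM scaling, which applies a factor per library that centres most genes on a common level. Together the 10 carriers had 218, 361 and 365 CPM in Cas9 replicates 1, 2 and 3. Their sum was 320, 127 and 173 CPM in Cre and 1089, 488 and 1134 CPM in Flpo. All 3 Flpo sums were above all 6 others, and the Cas9 and Cre sums overlapped. Without TMM scaling Flpo replicate 2 (383 CPM) fell just below Cas9 replicate 2 (384) and Cre replicate 1 (386), so that separation depended on the scaling. In bulk RNA, fewer cells that express a gene and less RNA per cell cannot be told apart. Counts limited what could be seen in Cre replicate 2. There 6 of the 10 carriers had 3 counts or fewer, 2 had none, and 3 counts were worth 11.2 CPM.

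**Figure D1:**
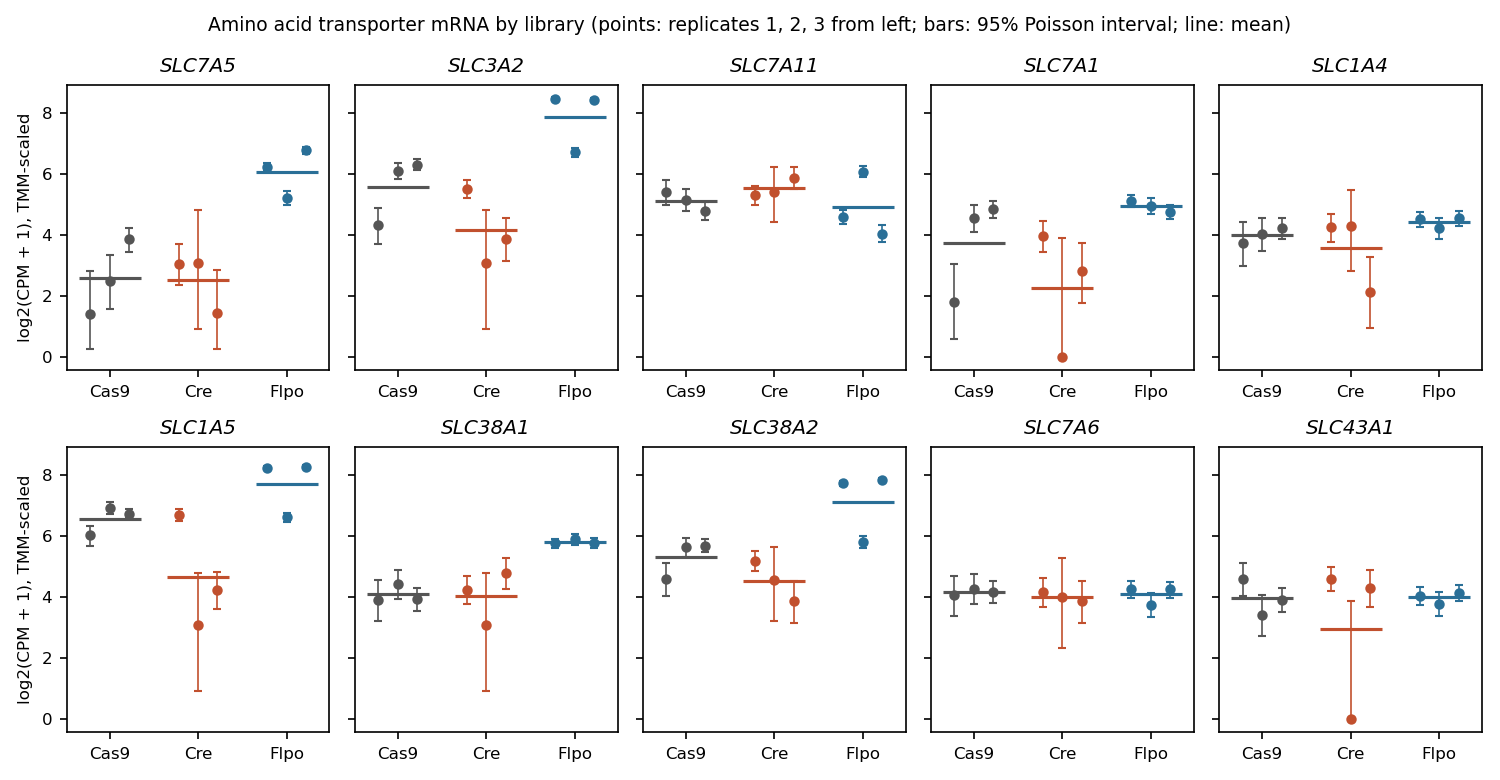
Level of each of the 10 carriers in every library (y axis: log2(CPM + 1), TMM-scaled; points are replicates 1 to 3 from the left, lines the mean of the points, bars exact 95% Poisson intervals, which cover counting error only). SLC7A5, SLC3A2, SLC38A1 and SLC38A2 had all 3 Flpo libraries above the other 6, which without TMM scaling held for SLC7A5 and SLC3A2, and the intervals were widest in Cre replicate 2.

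SLC3A2 (chromosome 11, 62856102 to 62888875, plus strand, GRCh38) encodes the heavy chain. It had 19.1, 67.7 and 78.0 CPM in Cas9, 44.8, 7.47 and 13.7 in Cre and 344.5, 103 and 341 in Flpo. With or without TMM scaling the Flpo libraries lay above all others, with Flpo replicate 2 closest to the Cas9 libraries. In the count model, edgeR's quasi-likelihood fit over the 9 libraries, SLC3A2 was 4.76-fold higher in Flpo than in Cas9 (log2 fold change 2.25, SE 0.72). It was 11.0-fold lower in Cre than in Flpo (log2 fold change -3.46, SE 0.77). Cre and Cas9 overlapped (log2 fold change -1.21, SE 0.72).

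SLC7A5 (chromosome 16, 87830023 to 87869488, minus strand), the leucine-carrying light chain, had the largest difference of the 10. Its levels were 1.66, 4.59 and 13.4 CPM in Cas9, 7.31, 7.47 and 1.72 in Cre and 73.3, 36.3 and 107.9 in Flpo. The lowest Flpo library was above the highest of the other 6, with or without TMM scaling. The Cas9 values rest on 2, 8 and 47 counts and the Cre values on 15, 2 and 2 counts, against 142 to 676 in Flpo. SLC7A5 was 10.3-fold higher in Flpo than in Cas9 (log2 fold change 3.37, SE 0.76) and 13.8-fold lower in Cre than in Flpo (-3.79, SE 0.83). Cre and Cas9 overlapped (-0.42, SE 0.82). Of its transcripts' 31-base words, 11.2% also occur in other genes, among them the pseudogenes SLC7A5P1 and SLC7A5P2. SLC7A5P1 had 3 counts, all in Flpo replicate 1, and SLC7A5P2 had at most 6.44 in a library.

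SLC7A5 and SLC3A2 work as a pair, and the ratio of their estimated counts within a library does not depend on scaling between libraries. The ratio was 0.0868, 0.0678 and 0.172 in Cas9, 0.163, 1 and 0.125 in Cre and 0.213, 0.352 and 0.316 in Flpo. The ratio of 1 came from 2 counts of each gene in Cre replicate 2. Apart from that library, the 3 Flpo ratios were the highest. In mRNA counts the light chain was thus a larger part of the pair in every Flpo library than in any Cas9 library. The nearest values were 0.172 and 0.213, and the Cas9 ratios rest on 2, 8 and 47 counts of SLC7A5. How often other gene pairs separate in this way was not computed.

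SLC7A6 (chromosome 16, 68264516 to 68301823, plus strand), a light chain that exchanges cationic for neutral amino acids with sodium, varied least within groups of the 10 (pooled SD 0.20 on the log2(CPM + 1) scale). It had 15.8, 18.4 and 17.1 CPM in Cas9, 17.1, 14.9 and 13.7 in Cre and 18.1, 12.5 and 18.04 in Flpo. All 3 groups overlapped, and every log2 fold change was within its SE of 0. Without TMM scaling its Flpo libraries were all below the Cas9 and the Cre libraries, so its level relative to other groups depended on the scaling. Of its 31-base words 53.6% are shared, mainly with SLC7A6OS on the opposite strand, so its level is uncertain. The ratio of SLC7A5 to SLC7A6 counts was 0.106, 0.248 and 0.778 in Cas9, 0.425, 0.570 and 0.122 in Cre and 4.05, 2.90 and 6.001 in Flpo. Between these 2 partners of the same heavy chain, SLC7A5 had fewer counts than SLC7A6 in all Cas9 and Cre libraries and more in all Flpo libraries.

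SLC7A11 (chromosome 4, 138164097 to 138242349, minus strand) is xCT, the light chain that exports glutamate for cystine and so supplies glutathione synthesis. It had 41.5, 34.4 and 26.6 CPM in Cas9, 38.5, 41.1 and 57.5 in Cre and 23.1, 66.2 and 15.5 in Flpo. Its highest and lowest levels were both in Flpo, so the groups overlapped in every comparison. The log2 fold change was 0.43 (SE 0.58) for Cre against Cas9, 0.03 (SE 0.57) for Flpo against Cas9 and 0.40 (SE 0.58) for Cre against Flpo. Without TMM scaling these were 0.65, -0.49 and 1.14, so no direction holds for Flpo against Cas9. Some of its words, 12.2%, are shared, chiefly with SLC7A11-AS1. Per heavy-chain count the picture was uneven: the ratio of SLC3A2 to SLC7A11 counts was 14.9 and 21.98 in Flpo replicates 1 and 3 and 1.55 in Flpo replicate 2. The last value lay within the 0.460 to 2.94 of the Cas9 libraries, and the Cre ratios were 1.16, 0.177 and 0.241.

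SLC7A1 (chromosome 13, 29509410 to 29595688, minus strand) is CAT1, a carrier of arginine and lysine that needs no heavy chain. It had 2.49, 22.4 and 27.7 CPM in Cas9, 14.6, 0 and 6.01 in Cre and 33.5, 29.9 and 26.0 in Flpo. The Flpo libraries were all above the Cre libraries and overlapped Cas9. The 0 in Cre replicate 2 has an exact 95% Poisson interval that reaches 13.8 CPM. The log2 fold change of Cre against Flpo was -1.82 (SE 0.83) and that of Flpo against Cas9 was 0.73 (SE 0.77).

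SLC1A5 (chromosome 19, 46774883 to 46788594, minus strand), ASCT2, exchanges glutamine and other neutral amino acids with sodium. It had 64.0, 119 and 106 CPM in Cas9, 102.3, 7.47 and 18.02 in Cre and 296, 96.6 and 306 in Flpo. Flpo replicate 2 was below Cre replicate 1 and below 2 of the 3 Cas9 libraries, so Flpo overlapped both other groups. The log2 fold change was -2.36 (SE 0.78) for Cre against Flpo and 1.27 (SE 0.75) for Flpo against Cas9. With 22.8% of its words shared, mostly with AC008622.2 on the opposite strand, its counts may include reads of that gene.

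Its relative SLC1A4 (chromosome 2, 64988477 to 65023865, plus strand), ASCT1, which exchanges alanine, serine and cysteine, differed little. It had 12.5, 15.5 and 17.7 CPM in Cas9, 18.03, 18.7 and 3.43 in Cre and 21.9, 17.6 and 22.4 in Flpo. The groups overlapped in every comparison. The log2 fold change was -0.69 (SE 0.63) for Cre against Flpo, but 0.08 without TMM scaling. It was 0.43 (SE 0.60) for Flpo against Cas9, but -0.10 without it, so no direction holds. SLC1A5 had 13.5 and 13.7 counts for each SLC1A4 count in Flpo replicates 1 and 3. The ratio was 5.49 in Flpo replicate 2, 5.24 to 7.63 in Cas9, 5.62 and 5.25 in Cre replicates 1 and 3 and 0.419 in Cre replicate 2.

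The system A genes SLC38A1 and SLC38A2 lie near each other on chromosome 12 (46183063 to 46270017 and 46358189 to 46372867, both minus strand). Both take up small neutral amino acids with sodium. SLC38A2 had 23.3, 48.8 and 50.3 CPM in Cas9, 35.6, 22.4 and 13.7 in Cre and 210.3, 55.2 and 227 in Flpo. SLC38A1 had 14.1, 20.7 and 14.3 in Cas9, 18.03, 7.47 and 26.6 in Cre and 53.1, 58.3 and 53.5 in Flpo. Both genes had all Flpo libraries above the others, but SLC38A1 was nearly level over the 3 Flpo libraries while SLC38A2 was low in Flpo replicate 2. Without TMM scaling SLC38A2 in Flpo replicate 2 (43.3 CPM) was below Cas9 replicates 2 and 3 (51.7 and 46.8). SLC38A1 in Flpo replicate 1 (34.85 CPM) was then level with Cre replicate 3 (34.95).

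Against Cas9, SLC38A2 was 4.003-fold higher in Flpo (log2 fold change 2.00, SE 0.61) and SLC38A1 3.36-fold higher (1.75, SE 0.51). Cre against Flpo gave -2.75 (SE 0.64) for SLC38A2 and -1.57 (SE 0.52) for SLC38A1. The ratio of SLC38A2 to SLC38A1 counts was 3.96, 0.946 and 4.24 in Flpo, 1.68, 2.34 and 3.51 in Cas9 and 1.97, 3 and 0.513 in Cre. These ratios overlapped between all groups.

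SLC43A1 (chromosome 11, 57484534 to 57515786, minus strand), LAT3, carries large neutral amino acids by facilitated diffusion without a heavy chain. It had 23.3, 9.75 and 14.0 CPM in Cas9, 23.4, 0 and 18.9 in Cre and 15.5, 12.8 and 16.8 in Flpo. The groups overlapped throughout, and every log2 fold change was within its SE of 0. Among the 10, of the carriers that accept leucine, SLC7A5 had its Flpo libraries above the rest, whereas SLC43A1 and SLC7A6 did not. Without TMM scaling SLC7A6 had its Flpo libraries below the rest.

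**Figure D2:**
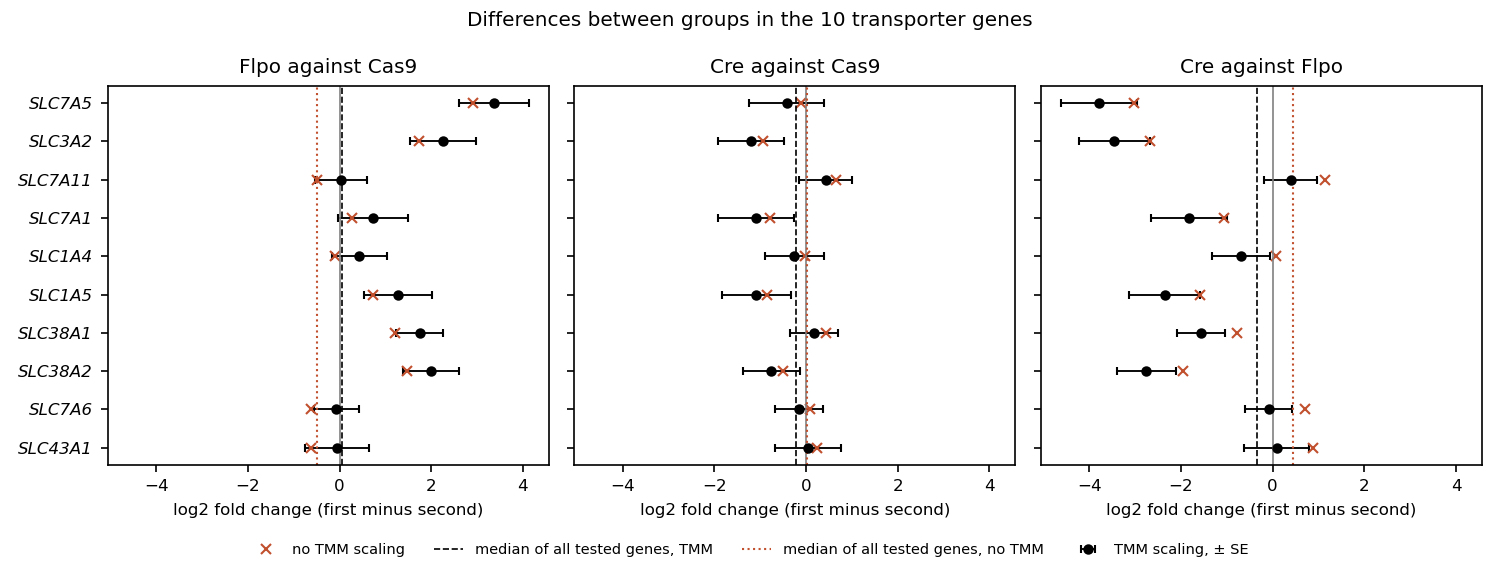
Log2 fold change of each carrier in the 3 comparisons (points, TMM scaling; bars are the SE; crosses, without TMM scaling; vertical lines, 0 and the medians of all tested genes). SLC7A5, SLC3A2, SLC38A2 and SLC38A1 had the largest values for Flpo against Cas9, and SLC7A6, SLC43A1 and SLC7A11 lay near 0.

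Of the 10 carriers, 4 had Flpo libraries all above the Cas9 libraries (SLC7A5, SLC3A2, SLC38A1 and SLC38A2) and none had them all below. Over all tested genes, 25% did not overlap in this comparison, 12.8% higher and 12.2% lower. Without TMM scaling 3 carriers were above (SLC7A5, SLC3A2 and SLC38A1) and 1 below (SLC7A6), against 6.16% and 23.2% of all genes. None of the 10 passed an adjusted p of 0.05 by edgeR, against 0.227% of all genes (0.218% higher and 0.0084% lower). At an unadjusted p of 0.05, 4 carriers and 20% of all genes passed. DESeq2 called SLC7A5, SLC3A2, SLC38A1 and SLC38A2, where it called 4.29% of all genes. For Cre against Flpo, edgeR called 5 carriers lower (SLC7A5, SLC3A2, SLC1A5, SLC38A1 and SLC38A2) and none higher. Over all genes 20.5% were called, 14.3% lower and 6.17% higher, and 39.8% passed at an unadjusted p of 0.05. Groups did not overlap for 5 carriers, all lower in Cre (SLC7A1 in place of SLC1A5). Over all genes 43.2% did not overlap, 27.9% lower and 15.2% higher. Without TMM scaling 4 carriers were lower (SLC7A5, SLC3A2, SLC7A1 and SLC38A2) and 1 higher (SLC7A6), against 14.4% and 28.7% of all genes.

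In Cre against Cas9 the groups overlapped for all 10 carriers, whereas 9.83% of all genes did not overlap, 3.46% higher and 6.37% lower. No carrier or other gene was called there by edgeR (0%), and DESeq2 called no carrier. At an unadjusted p of 0.05 no carrier and 7.38% of all genes passed. Since the carriers were listed with these values known, nothing is read from the counts.

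The median log2 fold change of the 10 was -0.34 for Cre against Cas9, 1.00 for Flpo against Cas9 and -1.69 for Cre against Flpo. The medians over all tested genes were -0.22, 0.05 and -0.34. Without TMM scaling the medians of all genes moved to 0.03, -0.48 and 0.44 and those of the carriers to -0.06, 0.49 and -0.92. The calls over all genes for Cre against Flpo moved from 735 higher and 1705 lower to 2039 higher and 840 lower. SLC7A5, SLC3A2 and SLC38A2 were called with either scaling. Flpo and Cre were each compared with Cas9 and with each other, so the comparisons share libraries and are not separate evidence.

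Within the Cas9 group the order of the libraries by SLC7A5, SLC3A2, SLC38A2, SLC7A1 and SLC1A4 level was also their order by depth, and SLC7A11 ran in the opposite order. Without TMM scaling SLC38A2 and SLC1A4 no longer followed depth there. With TMM scaling, SLC3A2 was also in depth order in Cre and in Flpo, and SLC7A1 in Cre but not in Flpo. SLC7A5, SLC38A2 and SLC1A4 were in depth order in neither of those groups. How many of all genes follow depth within a group was not computed. With log2 of the library total as a covariate, no gene was called by edgeR in Cre against Flpo, where 732 genes passed at an unadjusted p of 0.05. In that fit the log2 fold change of Cre against Flpo was -1.40 for SLC7A5, -1.34 for SLC38A2, -1.04 for SLC38A1 and -0.42 for SLC3A2, and SLC1A5 turned to 0.54. With every library thinned to the smallest total, 4 of the 10 carriers could be tested. SLC3A2 and SLC38A2 were called there, as were 22% of the 4943 genes left to test. Single libraries mattered too. Without Cre replicate 2, Cre replicate 3 or Flpo replicate 1, edgeR called 0 carriers and 0 genes in all. At an unadjusted p of 0.05, 5 carriers passed in each case. Over all genes 4721 of 13691, 3359 of 13796 and 3233 of 12431 passed at that level. The log2 fold change of SLC7A5 then ran from -3.89 to -3.29 and that of SLC3A2 from -3.18 to -3.12. Without Flpo replicate 3 only SLC3A2 was called (3.28% of all genes). SLC7A5, SLC3A2 and SLC38A2 were called without Cas9 replicate 2 (10% of all genes) or Cas9 replicate 3 (19.5%). For Flpo against Cas9, 4 carriers were called without Flpo replicate 2 (SLC7A5, SLC3A2, SLC38A1 and SLC38A2), where 21.3% of all genes were, and SLC7A5 was without Cas9 replicate 3 (0.591%).

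Seen as shares of the counts of the 10 carriers, which need no scaling between libraries, the make-up also differed. SLC7A5 made up 6.73%, 7.43% and 9.52% in Flpo and 0.765%, 1.27% and 3.68% in Cas9. In Cre it was 2.28%, 5.95% and 0.990%, where the value of Cre replicate 2 has a 95% Wilson interval of 1.63% to 19.1%. SLC7A11 made up 2.12% and 1.37% in Flpo replicates 1 and 3, 13.6% in Flpo replicate 2, 33.7% and 32.9% in Cre replicates 2 and 3 and 7.27% to 19.2% in the other 4 libraries. The SLC3A2 share was lowest in Cre replicate 2 (5.95%) and highest in Flpo replicate 1 (31.6%).

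**Figure D3:**
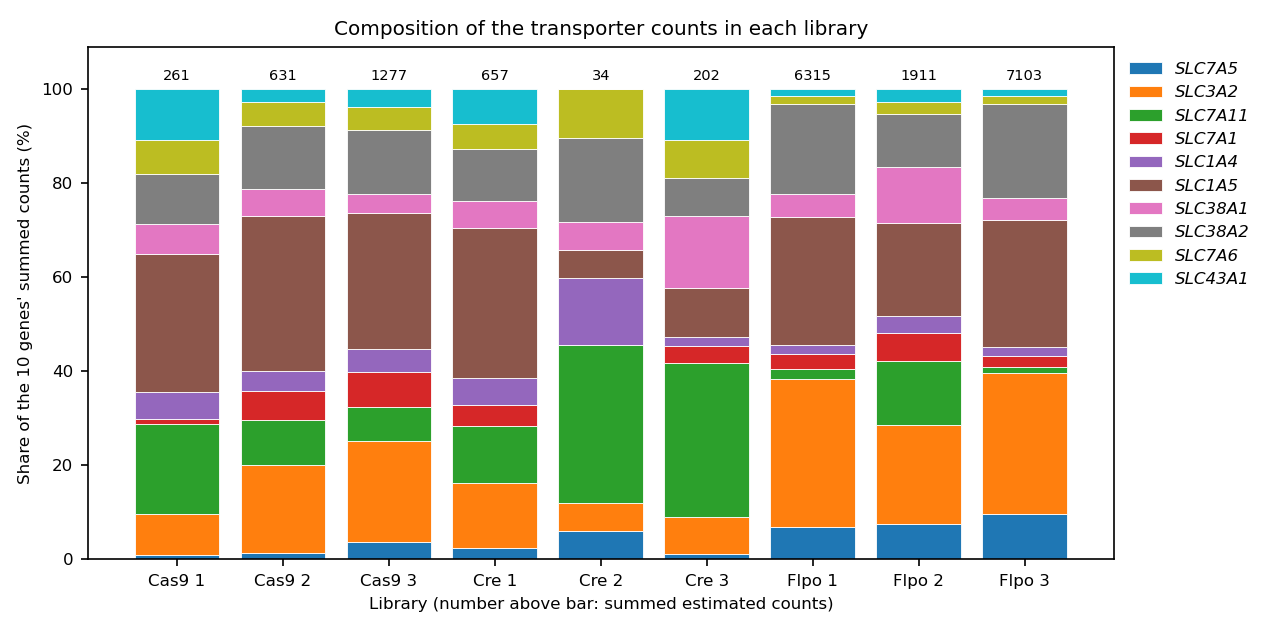
Share of each carrier in the summed counts of the 10 carriers, per library (stacked bars from 0 to 100%). The SLC7A5 share was 6.73% to 9.52% in Flpo and at most 5.95% elsewhere, and the SLC7A11 share was largest in Cre replicates 2 and 3.

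Levels of different genes were compared per kilobase of the median coding transcript (GENCODE 29). In Cas9 the order began with SLC1A5 at 49.4 CPM per kb (SD 14.8, n = 3), SLC3A2 at 26.9 (SD 15.4) and SLC38A2 at 14.5 (SD 5.41). It ended with SLC7A1 at 2.39 (SD 1.81) and SLC7A5 at 1.54 (SD 1.44). Between them came SLC43A1, SLC38A1, SLC1A4, SLC7A11 and SLC7A6, from 6.32 down to 2.73. In Cre the same 3 genes led, at 21.8 (SD 26.6), 10.8 (SD 9.82) and 8.53 (SD 3.92), and SLC7A5 (1.29, SD 0.77) and SLC7A1 (0.94, SD 1.00) were last. In Flpo, SLC3A2 at 129 (SD 67.9) and SLC1A5 at 119 (SD 60.5) led, SLC38A2 followed at 58.6 (SD 33.8), SLC38A1 at 19.0 (SD 0.99) and SLC7A5 at 17.02 (SD 8.41), and SLC7A6 was last at 2.60 (SD 0.51). SLC7A5 thus stood at rank 10 of 10 in Cas9 and at rank 5 in Flpo.

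Most neighbours in these orders overlapped over the 3 libraries. The exceptions were SLC1A4 above SLC7A11 in Cas9, SLC7A6 above SLC7A5 in Cre, and SLC7A5 above SLC1A4 and SLC43A1 above SLC7A1 in Flpo. Lengths vary with the transcript chosen, since SLC38A1 has a median of 2897.5 and a longest coding transcript of 8066 bases.

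The genes most alike in pattern were ranked by Pearson's r of log2(CPM + 1) over the 9 libraries, among 7690 genes with a mean of at least 50 counts. For SLC7A5 these were MRPL13 (r = 0.982), a mitochondrial ribosomal protein, IFRD2 (0.979), FBXO3 (0.977), TSEN15 (0.975), a tRNA splicing endonuclease subunit, and HDDC3 (0.974). For SLC3A2 they were DNAJB11 (r = 0.997), a chaperone of the endoplasmic reticulum, AURKA (0.996), a mitotic kinase, DPM1 (0.995), RMDN3 (0.994) and NID1 (0.993). Among the carriers, SLC3A2 was most like SLC38A2 (r = 0.95) and SLC1A5 (0.94), and SLC7A5 was most like SLC38A2 (0.92). SLC3A2 and SLC7A5 had r = 0.86, and SLC7A11 was negative with each of the other 9. Many genes were more alike than these carriers. In likeness to SLC3A2 among all tested genes, SLC38A2 ranked 433, SLC1A5 679 and SLC7A5 2156. In likeness to SLC7A5, SLC38A2 ranked 345 and SLC3A2 1064. The points are libraries that share depth and scaling differences, so these values describe the pattern and no more.

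Of 42 other amino acid transporters in the table, 22 were tested, and their median log2 fold change for Cre against Flpo was 0.25, against -0.34 over all genes. By edgeR with Benjamini-Hochberg adjustment, 2 were higher in Cre and none lower: SLC36A3 (log2 fold change 4.17, SE 0.95, adjusted p = 0.0185) and SLC36A2 (3.21, SE 0.89, adjusted p = 0.0285). That is 9.09% of the 22 higher and 0% lower, against 6.17% and 14.3% of all genes. Groups did not overlap for 5 that were higher and 6 that were lower in Cre. The balance of calls varied with the settings, since DESeq2 called 3 higher and 3 lower and edgeR with no filter 2 higher and 3 lower. A difference from the 10 carriers was not tested. These proton-coupled carriers are neighbours on chromosome 5 (151276762 to 151303766 and 151314978 to 151347590, minus strand). SLC36A3 had 164, 54.5 and 21.4 CPM in Cas9, 105, 168 and 267 in Cre and 4.49, 23.5 and 2.39 in Flpo. SLC36A2 had 93.9, 51.6 and 20.8 in Cas9, 67.2, 119 and 133 in Cre and 7.42, 26.1 and 1.28 in Flpo. For both genes the Cre libraries were all above the Flpo libraries, and Cas9 overlapped both.

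No other transporter was called in the comparisons with Cas9 by edgeR. At an unadjusted p of 0.05, 4 passed for Flpo against Cas9 and none for Cre against Cas9 (20% and 7.38% of all genes). DESeq2 called 2 and 0 (4.29% and 0.0158% of all genes). The 2 with most counts there were SLC43A2, a relative of SLC43A1, and SLC16A10, a carrier of aromatic amino acids. SLC43A2 had a log2 fold change of -0.18 (SE 0.58) for Flpo against Cas9 and 0.34 (SE 0.59) for Cre against Cas9. SLC16A10 had -0.94 (SE 0.49) and 0.52 (SE 0.48).

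Of 11 mitochondrial carriers of amino acids, 7 were tested, and 2 were lower in Cre than in Flpo, where 14.3% of all genes were. These were the glutamate carrier SLC25A22 (log2 fold change -3.74, SE 0.88, adjusted p = 0.0194 by edgeR) and SFXN3, a serine carrier (-2.77, SE 0.67, adjusted p = 0.0204 by edgeR). SLC25A22 had 3.41, 3.73 and 3.43 CPM in Cre and 43.8, 17.4 and 78.9 in Flpo, with no overlap. Its Cre values rest on 7, 1 and 4 counts, so their closeness is no sign of precision. The median of the 7 tested mitochondrial carriers was -1.04, against -0.34 over all genes. None was called in the comparisons with Cas9, where SFXN1, a serine carrier with the most counts of the list, had a log2 fold change of 1.15 (SE 0.56) in Cre and 0.79 (SE 0.55) in Flpo.

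Amino acid sensing runs from the Rag GTPases and the Ragulator scaffold at the lysosome to mTORC1. Of 37 genes of this list 34 were tested, 5 were lower in Cre than in Flpo and 2 higher by edgeR, with a median of -0.48. The shares, 14.7% lower and 5.88% higher, were close to the 14.3% and 6.17% of all genes, whose median was -0.34. The lower ones were RHEB, the GTPase that activates mTORC1 (log2 fold change -4.73, SE 0.84, adjusted p = 0.0167), the mTORC1 subunit MLST8 (-3.30, SE 0.88, adjusted p = 0.0261) and the Ragulator subunit LAMTOR1 (-3.04, SE 0.69, adjusted p = 0.0185). SEC13 of the GATOR2 complex (-2.82, SE 0.76, adjusted p = 0.0268) and LAPTM4B, a lysosomal protein that recruits SLC7A5 and SLC3A2, were the others. FLCN was among those that were higher. RHEB had 3.41, 11.2 and 4.29 CPM in Cre, 8.31, 15.5 and 28.0 in Cas9 and 185, 34.0 and 185 in Flpo. Its Cre values rest on 7, 3 and 5 counts. No gene of the list was called in either comparison with Cas9, where TSC2, an inhibitor of RHEB, had a log2 fold change of 0.18 (SE 0.50) in Cre and -0.63 (SE 0.50) in Flpo.

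Of 14 genes of the amino acid response, 11 were tested and 1 was called, ATF4, lower in Cre than in Flpo (log2 fold change -3.27, SE 0.89, adjusted p = 0.0268 by edgeR). This is 9.09% of the list, against 14.3% of all genes called lower. ATF4 had 20.8, 116 and 232 CPM in Cas9, 40.9, 11.2 and 4.29 in Cre and 259, 158 and 167 in Flpo. Its Cre values rest on 84, 3 and 5 counts. Flpo and Cas9 overlapped, and in Cas9 the order of the libraries was again that of their depth. The Flpo libraries were in depth order for ATF4 too, and the Cre libraries were not. The median of the 11 was -0.99. None was called against Cas9. DDIT4, an inhibitor of mTORC1 signalling, had a log2 fold change of -2.07 (SE 1.06) in Cre and 1.01 (SE 0.99) in Flpo there. All calls named for these 4 lists were lost with the depth covariate and without Cre replicate 2, Cre replicate 3 or Flpo replicate 1.

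**Figure D4:**
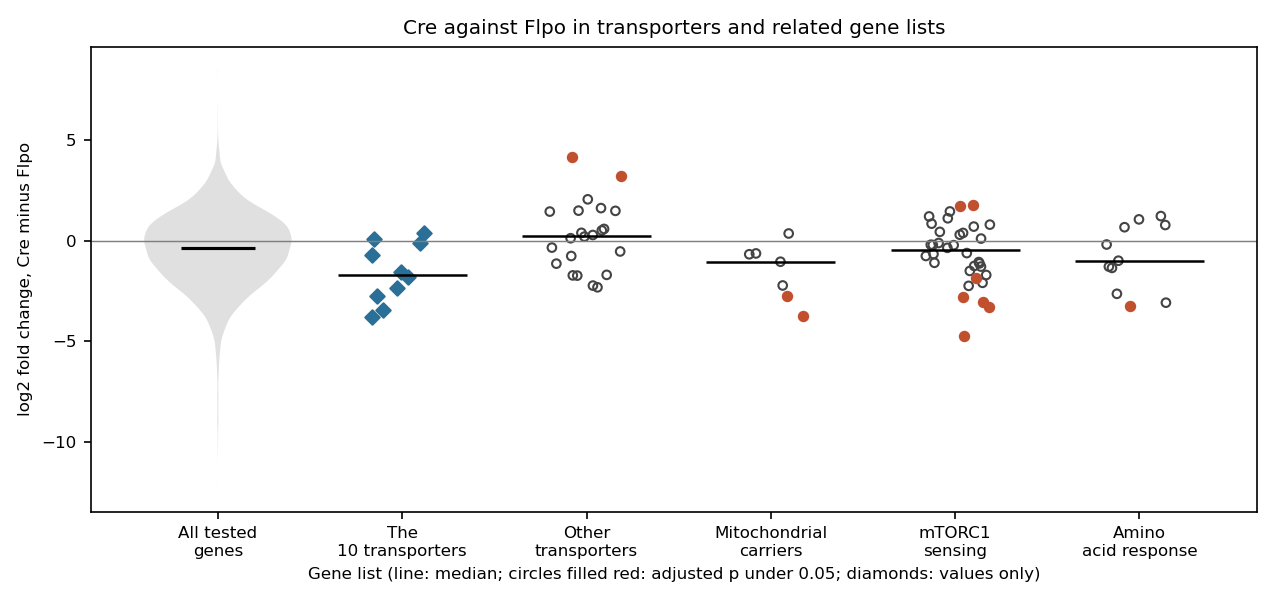
Log2 fold change of Cre against Flpo for each tested gene of the 4 lists for the 10 carriers (blue diamonds) and for all tested genes (grey shape); lines are medians and red circles passed an adjusted p of 0.05. The carriers' median was -1.69, that of the 22 other transporters 0.25, and SLC36A3 and SLC36A2 lay highest among the latter.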

How the data were processed

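The authors deposited the estimated counts of all 9 libraries in 1 table with a row per gene symbol, made with Salmon 0.14.1 and hg38 per the submitters' processing notes. The annotation and use of strand are not given in the sources used here. Per the labels' protocols, TRIzol was used for extraction and a TruSeq RNA kit for library preparation. Salmon shares reads among genes, so 48.7% to 60.8% of values above 0 were not whole (tolerance 0.0005). They were rounded, filtered with filterByExpr (minimum count 10, minimum total 15) and fitted over all 9 libraries with edgeR 4.0.16 in R 4.3.3 (TMM, quasi-likelihood test, Benjamini-Hochberg over 11905 genes, threshold 0.05). The SE of a log2 fold change was taken as its size over the root of edgeR's F statistic. Totals ran from 213907 to 8833491. Intervals and the floor of 3 counts cover counting error only. Poisson and Wilson intervals are at 95%. The fit was tested on simulated data. DESeq2 1.42.0, other scalings and filters, a depth covariate, thinning and leaving out libraries were alternatives. No libraries agreed within sampling noise.

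The members and lists were chosen with earlier results of these data known. All 10 carriers were named. Of each list and comparison, up to 4 called genes with the largest change and a mean of at least 20 counts were named, or, where none was called, the 2 most expressed. LAPTM4B and FLCN were named beside a count, after their values were seen. Some items are not reported here. SLC66A1 and KICS2 are listed under older symbols. Coordinates and lengths are from GENCODE 29 (GRCh38).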

Additional observations from a re-analysis of the deposited data

How the results depend on the processing

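Counts of calls moved with the processing, and the causes were not tested unless stated. With no filter on low counts, 51 genes were called for Cre against Cas9. For Flpo against Cas9 that setting called 3 carriers, 4 other transporters and 1169 genes (27 with the filter). For Cre against Flpo it called 5 other transporters and 3613 genes. DESeq2 called 4 genes for Cre against Cas9. It called 4 carriers, 2 other transporters and 1088 genes for Flpo against Cas9, and 6 other transporters and 4103 genes for Cre against Flpo (2440 by edgeR). Without TMM scaling 12 genes were called for Flpo against Cas9, and 3 carriers, 5 other transporters and 2879 genes for Cre against Flpo. With the depth covariate, which is nearly confounded with the groups, 0 genes were called for Flpo against Cas9, and 0 carriers, 0 other transporters and 0 genes for Cre against Flpo. The log2 fold change of SLC1A5 reversed there to 0.54. A fit of only the groups compared called 0 genes for Flpo against Cas9 (2807 at an unadjusted p of 0.05). For Cre against Flpo it called 3 carriers and 2161 genes. Thinning, which left 4943 genes to test, called 14 genes for Flpo against Cas9, and 2 carriers and 1087 genes for Cre against Flpo.

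Without Cre replicate 2 and Flpo replicate 2 together, chosen after seeing the data, 4 carriers, 7 other transporters and 2966 genes were called for Flpo against Cas9, and 9 other transporters and 5141 genes for Cre against Flpo. Leaving out 1 library at a time gave 0 to 5 carriers, 0 to 12 other transporters and 0 to 5559 genes for Cre against Flpo. It gave 0 to 4 carriers, 0 to 7 other transporters and 0 to 2685 genes for Flpo against Cas9, and 0 for Cre against Cas9. Where an arm kept 2 libraries, the fit pooled the spread over groups.

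Same-numbered libraries share only a number: the mean correlation of their deviations was -0.331 (Cre and Cas9), -0.093 (Flpo and Cas9) and 0.115 (Cre and Flpo). With the replicate block, 6 genes were called for Flpo against Cas9 and 1568 for Cre against Flpo, and 4 carriers remained for Cre against Flpo, without SLC38A1.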

Other observations

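ASNS, asparagine synthetase, is a textbook target of ATF4 and was looked at after its values were seen. It had 19.1, 21.2 and 10.6 CPM in Cas9, 20.5, 52.3 and 26.6 in Cre and 21.7, 13.0 and 24.1 in Flpo. Its log2 fold change for Cre against Flpo was 0.68 (SE 0.56, adjusted p = 0.374 by edgeR), where that of ATF4 was -3.27. TRIB3, another ATF4 target, had -1.35 (SE 0.88, adjusted p = 0.259 by edgeR). Its Cre libraries were all below its Flpo libraries, as for 27.9% of all genes. Of the 11 tested genes of the response list, ATF4 included, 7 had a negative and 4 a positive value in this comparison, with a median of -0.99. Whether targets of ATF4 follow its level was not tested.

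SLC7A8 and SLC7A7, further light chains of SLC3A2, were also looked at after their values were seen. SLC7A8 (LAT2) had 0, 3.44 and 3.43 CPM in Cas9, 5.85, 0 and 2.57 in Cre and 19.0, 8.95 and 27.1 in Flpo. The Cas9 values rest on 0, 6 and 12 counts and the Cre values on 12, 0 and 3. All Flpo libraries were above the others, but the difference did not pass the threshold (Cre against Flpo log2 fold change -2.32, SE 0.90, adjusted p = 0.0797 by edgeR). SLC7A7 overlapped between all groups, with a log2 fold change of 0.13 (SE 0.89) for Cre against Flpo.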
